A study of Mus musculus with 10 samples.

Results

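The 10 genes described here belong to the growth hormone axis of the liver, whose best known secreted product is insulin-like growth factor 1. They are Ghr, Igf1, Igfals, Stat5a, Stat5b, Socs2, Cish, Igfbp1, Igfbp2 and Igfbp3, a set of known members of the axis named by symbol. All 10 were found among the 24537 gene symbols of the count table, and all 10 were among the 13909 genes with enough counts to be tested. RNA was measured by polyA sequencing in 10 whole livers of male mice. The young control group held 3 livers of mice aged 9 months, which had received virus at 7 months. The old control group held 3 livers of mice aged 25 months, which had received virus at 23 months. Both control groups carried an adeno-associated virus of serotype 8 directed at Rosa26, a locus widely used as a neutral target. The third group held 4 livers of mice aged 25 months whose virus, also given at 23 months, was directed at Cd44, the gene of a cell surface receptor. In 2 of these livers, replicates 1 and 2, the guide RNA was guide 4, and in the other 2, replicates 3 and 4, it was guide 2. The Cas9 of Staphylococcus aureus was driven by the TBG promoter, which is active in hepatocytes, so other liver cells were not the target. No young liver carried a Cd44 guide. Nothing in the labels says whether the livers came from separate cages or days, and the p-values measure only the spread between these livers, which may be technical.

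Growth hormone reaches the liver in pulses from the pituitary and binds its receptor, which activates the kinase JAK2. JAK2 phosphorylates the transcription factors STAT5A and STAT5B, and these switch on Igf1, Igfals and the feedback inhibitors Socs2 and Cish. Hepatocytes secrete IGF1 into blood, where it circulates with a binding protein and the acid-labile subunit that Igfals encodes. In rodents the pulses are more widely spaced in males than in females, and this difference sets the level of many sex-biased liver genes.

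Short stretches of promoter are shown for the 3 genes whose windows held a match to either of 2 motifs connected with this axis. The motifs were TTCNNNGAA, the core of STAT5 sites, and CAAAACA, found in the insulin response element that FOXO factors bind. Both strands were searched, the motifs do not overlap each other, and each window ran from 250 bases before to 50 bases after a RefSeq start on GRCm38.p6. Windows were available for 9 of the 10 genes, 15 windows in all. The first motif was found in windows of 2 genes, Cish and Igfals, and the second in the window of 1 gene, Igfbp1. Of 32851 windows of the same length across the genome, 8.30% held the first motif at least once, 0.457% held it 2 or more times and 6.28% held the second. Cish was the gene with 2 matches in 1 window. Capitals mark the matches, all sequences are on the plus strand, and a match is only a description of these letters.
Cish, chr9:107296654-107296683, at the start site: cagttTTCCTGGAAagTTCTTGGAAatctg
Igfals, chr17:24877598-24877627, first of 3 windows: gatctataatTTCTCAGAAaagaggctgag
Igfals, chr17:24878163-24878192, second of 3 windows: ctgccaggtgTTCCTAGAAgaggccctggg
Igfbp1, chr11:7197649-7197715, before the start site: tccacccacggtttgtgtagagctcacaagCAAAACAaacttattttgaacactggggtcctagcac

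The libraries held 15821198 to 21710228 counts, so that 3 counts correspond to between 0.138 and 0.190 CPM. CPM are counts scaled to library size, here with trimmed mean of M values (TMM) factors. Those factors were 0.823 to 0.897 in the young livers and 0.966 to 1.12 in the old ones. Scaling by total counts in their place moved the median log2 fold change of all genes between old and young controls from 0.04 to 0.34, and between old knockout and young livers from 0.03 to 0.35. It also raised the share of called genes that were higher in old controls from 62.0% to 91.6%, and in old knockout livers from 57.2% to 92.9%, so changes with age are relative to the scaling. Old control replicate 3 has a library name outside the run of the other names, and it had the highest Cish, Socs2 and Igfbp1 and the lowest Igfbp3 of the old controls. Results for these genes are given with and without it. Cd44 counts in whole liver did not separate the labelled groups. They were 14.2 to 29.99 CPM in old controls and 13.1 to 29.0 CPM in the livers labelled knockout (log2 fold change -0.25, SE 0.30, adjusted p = 0.896), so directions rest on the labels. The 8 measured hepatocyte markers summed to between 78400 and 120844 CPM and none was at 0 in any liver.

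Per kilobase of annotated exon, used here to set genes side by side, the axis spanned a wide range of RNA levels. Exon length was the union of all annotated exons, not the length of the transcripts expressed, so the order is approximate. For Cish that union was 6419 bases of a gene running from 107296026 to 107302784. Igfbp2 was highest, with a mean over the 10 livers of 152 CPM per kilobase and a range of 89.4 to 254. Igf1 followed at 61.7 (56.5 to 68.8) and Ghr at 36.6 (30.2 to 43.7), and these 3 ranges did not overlap. Igfals at 27.4, Igfbp1 at 24.01, Igfbp3 at 10.3 and Stat5b at 9.74 CPM per kilobase came next. The lowest were Socs2 at 2.92, Cish at 2.61 and Stat5a at 2.39 CPM per kilobase. From Ghr downwards each gene's range over the livers overlapped that of the next.

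Between old and young controls, edgeR's quasi-likelihood test called none of the 10 genes changed (adjusted p under 0.05), whereas it called 22.8% of all tested genes. At an unadjusted p under 0.05 there were 2, Ghr and Igfbp3, against 38.5% of all genes. DESeq2 called 1 of the 10, Igfbp3, and limma voom none. The median log2 fold change of the 10 genes was -0.09, beside 0.04 for all genes tested. Between old knockout and old control livers again none was called, and none of the 13909 genes was (0% called), with 1 of the 10 and 6.59% of all genes at an unadjusted p under 0.05. DESeq2 and limma voom also called none of the 10 there, and the median log2 fold change was -0.16 beside -0.02 for all genes. Between old knockout and young livers none was called, against 11.6% of all genes. There 4 were at an unadjusted p under 0.05, namely Ghr, Socs2, Igfbp1 and Igfbp3, against 33.3% of all genes. DESeq2 called 3 of these (Ghr, Socs2 and Igfbp3) and limma voom none. The comparisons share livers and are not independent of each other.

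**Figure D1:**
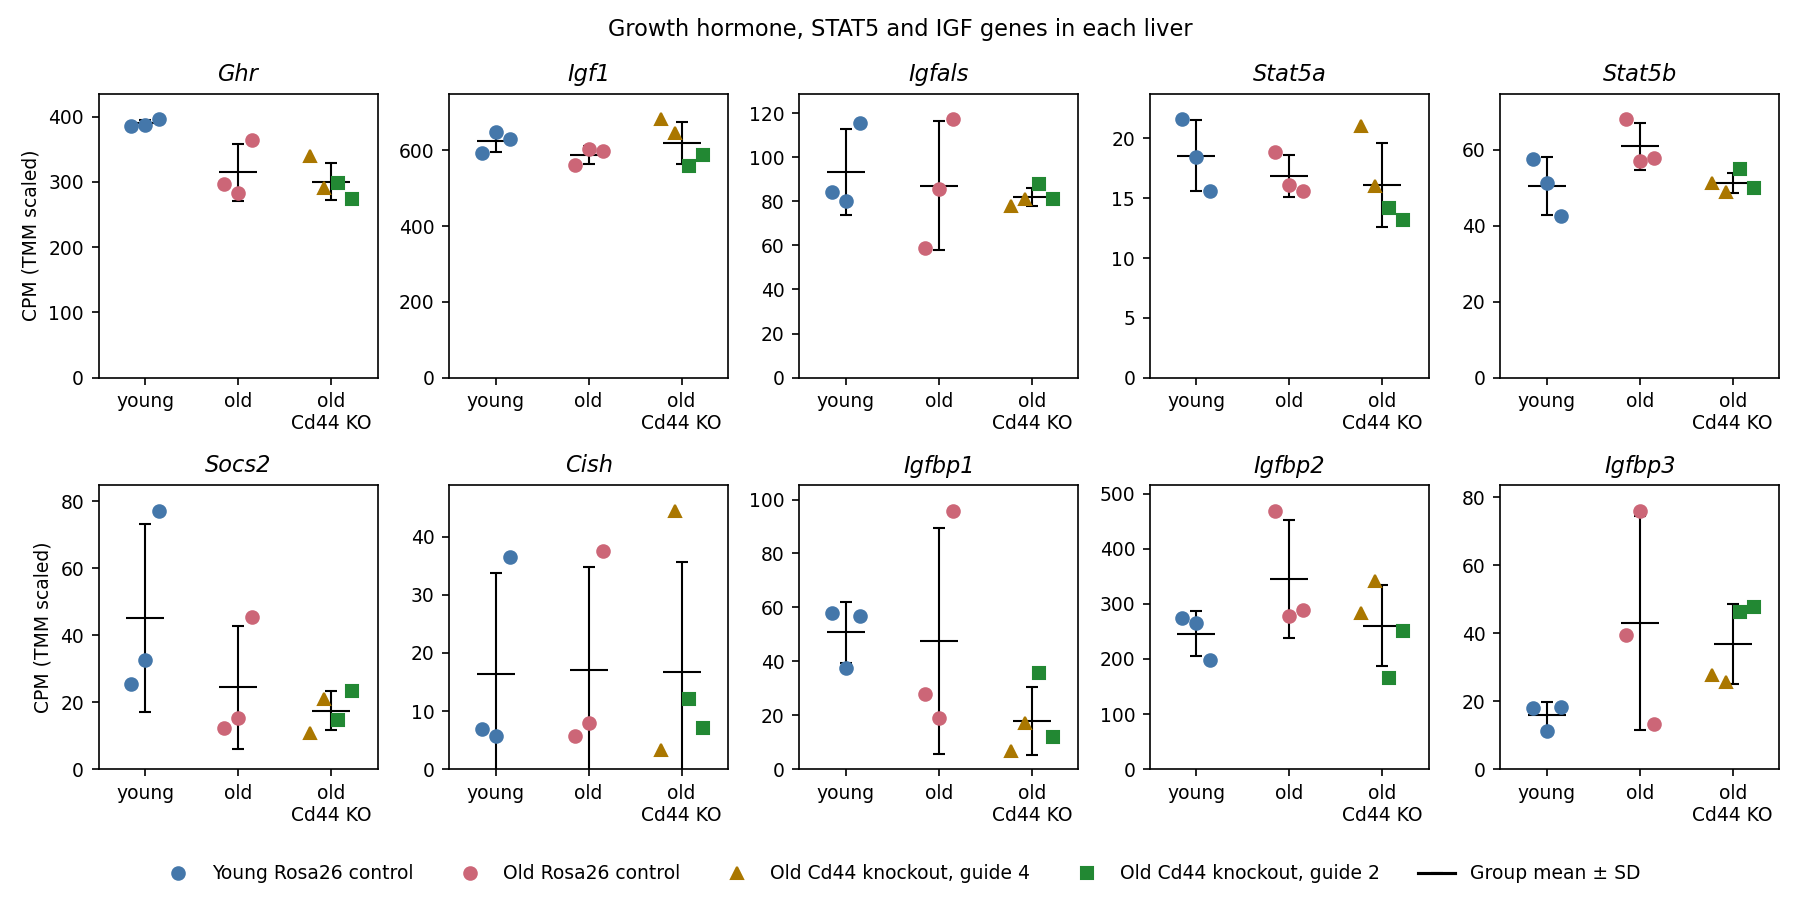
CPM with TMM scaling of each of the 10 genes (vertical axes, linear from 0) in every liver, by group, with symbols for the guide in knockout livers and black bars for the group mean ± SD. Igf1 lies between 559 and 682 CPM in every liver, whereas Cish lies between 3.31 and 44.4 CPM with 1 high liver in each group; error bars that would fall below 0 stop at the axis.

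**Figure D2:**
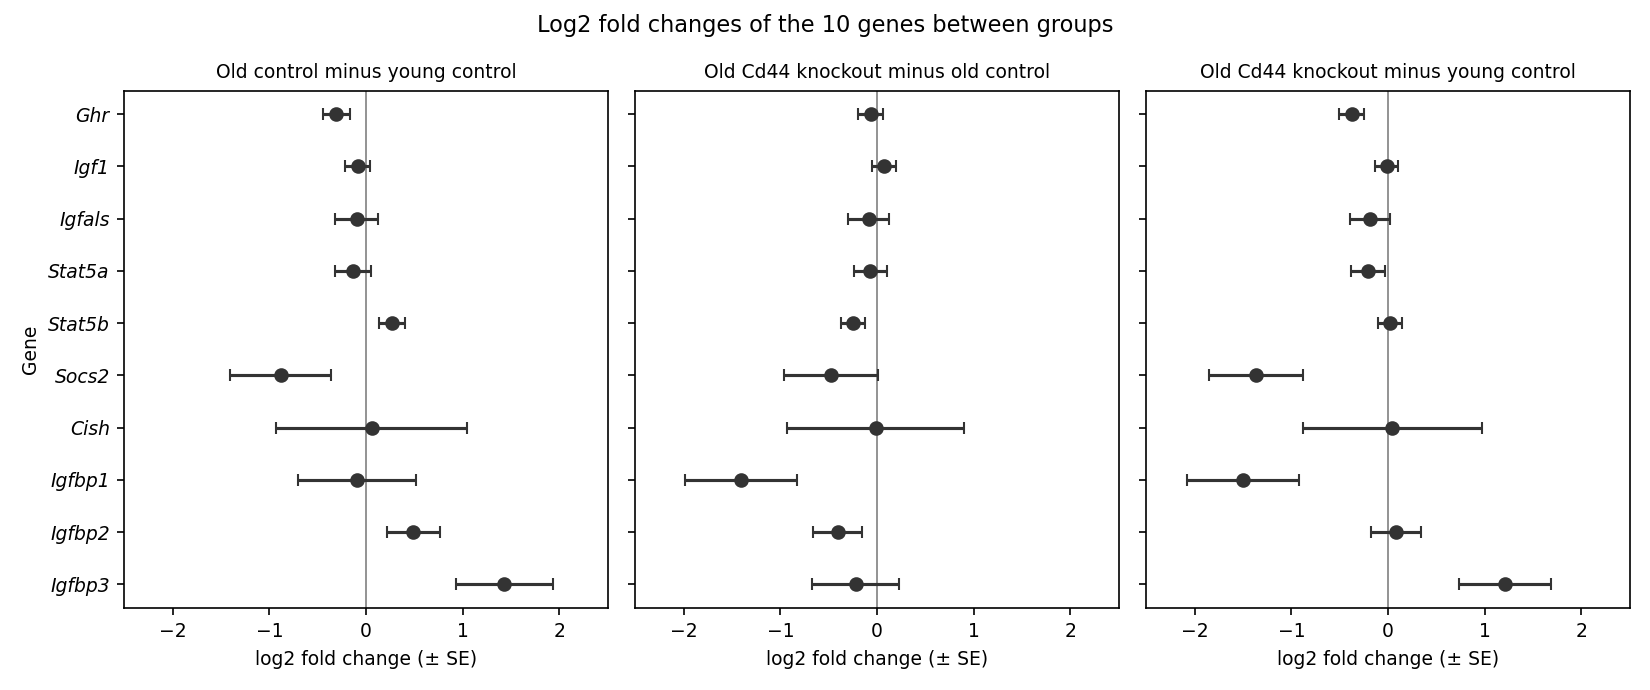
Log2 fold change (horizontal axis, ± SE) of each of the 10 genes in the comparisons of old with young control, old knockout with old control and old knockout with young control. Igfbp3 had the largest positive value with age, 1.43, and no point passed an adjusted p of 0.05.

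Ghr encodes the growth hormone receptor (GRCm38 chromosome 15, 3317760 to 3583492, minus strand). Its RNA stood at 386, 388 and 396 CPM in young livers, averaging 390 ± 5.15 CPM (SD, n = 3). Old controls had 297, 283 and 365 CPM, averaging 315 ± 43.7 CPM (SD, n = 3). Among knockouts, guide 4 livers had 340 and 290 CPM and guide 2 livers 299 and 274 CPM, together averaging 301 ± 28.2 CPM (SD, n = 4). Every old liver was thus below every young liver on this scale, and old controls and knockouts overlapped. Groups did not overlap between old and young controls for 37.7% of all genes tested. The log2 fold change with age was -0.31 (SE 0.14, adjusted p = 0.127). In knockout against young livers it was -0.38 (SE 0.13, adjusted p = 0.0766). Without old control replicate 3 the age value was -0.43 with an adjusted p of 0.0234, and with scaling by total counts it was -0.01.

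Igf1, the gene of the circulating growth factor (chromosome 10, 87858265 to 87937042, plus strand), was among the steadiest genes of the liver. It had 592, 649 and 631 CPM in young livers, averaging 624 ± 29.0 CPM (SD, n = 3). In old controls it had 562, 604 and 599 CPM, averaging 588 ± 23.0 CPM (SD, n = 3), which overlapped the young values. In knockout livers the values were 682 and 644 CPM for guide 4 and 559 and 587 CPM for guide 2, averaging 618 ± 55.3 CPM (SD, n = 4). The highest and the lowest of all 10 livers were both knockouts, and the guide groups did not overlap. The log2 fold changes were -0.09 (SE 0.13, adjusted p = 0.652) with age, 0.07 (SE 0.12, adjusted p = 0.922) between knockout and old control, and -0.01 between knockout and young livers. With scaling by total counts the age value was 0.22. The SD of log2 CPM within groups was 0.10, and 3.75% of all tested genes had a lower one. Among the 1000 genes nearest to Igf1 in level, 6.30% had a lower one.

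Igfals encodes the acid-labile subunit, the liver protein that lengthens the stay of IGF1 in blood (chromosome 17, 24865997 to 24882010, plus strand). Young livers had 84.1, 80.3 and 115 CPM, old controls 58.7, 85.6 and 117 CPM, and knockouts 78.0 and 81.1 CPM (guide 4) and 87.8 and 81.0 CPM (guide 2). The groups overlapped, and the old controls held both the lowest and the highest liver. The means were 93.3 ± 19.3 (SD, n = 3), 87.1 ± 29.3 (SD, n = 3) and 82.0 ± 4.15 CPM (SD, n = 4). The log2 fold changes were -0.10 (SE 0.22, adjusted p = 0.773) with age and -0.09 (SE 0.21, adjusted p = 0.952) between knockout and old control.

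Stat5a and Stat5b, the transcription factors between receptor and target genes, lie next to each other on chromosome 11 (100859351 to 100885169, plus strand, and 100780731 to 100850724, minus strand). Stat5b is the form more closely tied to growth hormone action in male liver, and its RNA was the more abundant per kilobase. Stat5b had 57.6, 51.2 and 42.6 CPM in young livers and 68.0, 57.1 and 57.8 CPM in old controls. Guide 4 knockouts measured 51.1 and 48.9 CPM and guide 2 knockouts 54.9 and 50.1 CPM, all below every old control. Groups did not overlap in this comparison for 6.10% of all genes, and the log2 fold change was -0.25 (SE 0.12, unadjusted p = 0.0674, adjusted p = 0.755). With age it was 0.27 (SE 0.13, adjusted p = 0.156), and 0.59 (adjusted p = 0.0113) with scaling by total counts. Stat5a had 21.6, 18.5 and 15.6 CPM in young livers, 18.9, 16.1 and 15.6 CPM in old controls, and 21.0 and 16.1 CPM (guide 4) and 14.2 and 13.2 CPM (guide 2). The groups overlapped, with log2 fold changes of -0.14 (SE 0.19) with age and -0.07 (SE 0.18) between knockout and old control, at adjusted p of 0.619 and 0.959.

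The share of Stat5a in the counts of the pair was lower in old than in young controls, a description that does not depend on the scaling of libraries. Stat5a made up 27.3%, 26.5% and 26.8% of the Stat5a and Stat5b counts in the young livers, a mean of 26.9% ± 0.372 (SD, n = 3). In old controls it made up 21.7%, 22.04% and 21.3%, a mean of 21.7% ± 0.366 (SD, n = 3). All old controls were below all young livers by more than the spread within either group. Counting error was wider than that spread, with a 95% Wilson interval of 23.9% to 29.3% in the lowest young liver and 20.1% to 24.1% in the highest old control. The knockout livers straddled both, with 29.1% and 24.7% for guide 4 and 20.5% and 20.8% for guide 2. The smallest p that an exact permutation test of 3 against 3 allows is 0.10, so none was run. The genes are similar in sequence, and how the authors' counting assigned shared reads is not given in the sources used here. Count ratios of Cish to Socs2 and of Igfbp1 to Igf1 were also computed, and both overlapped between old and young controls. Cish to Socs2 was 0.174 to 0.473 in young livers and 0.466 to 0.826 in old controls. How many other pairs of genes would separate these groups as the Stat5a share did was not tested.

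Socs2 and Cish encode inhibitors of the same receptor complex and are transcribed within a short time of a growth hormone pulse. Both varied far more between livers of a group than most genes did. Socs2 (chromosome 10, 95385362 to 95417180, minus strand) had 25.4, 32.6 and 77.1 CPM in young livers, averaging 45.0 ± 28.0 CPM (SD, n = 3). Old controls had 12.3, 15.4 and 45.4 CPM, averaging 24.4 ± 18.3 CPM (SD, n = 3). Among knockouts, guide 4 livers had 10.8 and 21.0 CPM and guide 2 livers 14.6 and 23.5 CPM, averaging 17.5 ± 5.83 CPM (SD, n = 4). Every knockout liver was below every young liver, whereas old control replicate 3 exceeded 2 of the 3 young livers. Groups did not overlap between knockout and young livers for 40.0% of all genes. The log2 fold change was -0.88 (SE 0.52, adjusted p = 0.234) with age and -1.70 (adjusted p = 0.0175) without old control replicate 3. Leaving out each liver in turn moved the age value between -1.70 and -0.25, so its size depended on single livers. The log2 fold change was -1.37 (SE 0.48, adjusted p = 0.0821) between knockout and young livers. It was -0.48 (SE 0.49, adjusted p = 0.869) between knockout and old control, where leaving out old control replicate 3 turned it to 0.33.

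Cish (chromosome 9, 107296026 to 107302784, plus strand), whose start site carries the paired TTCNNNGAA motif printed above, had 1 high liver in each group. Young livers had 6.98, 5.67 and 36.5 CPM and old controls 5.75, 7.93 and 37.5 CPM. In knockout livers the values were 3.31 and 44.4 CPM for guide 4 and 12.1 and 7.12 CPM for guide 2. The high livers were young replicate 3, old control replicate 3 and knockout replicate 2, and the means of the groups were 16.4 ± 17.4 (SD, n = 3), 17.1 ± 17.7 (SD, n = 3) and 16.7 ± 18.8 CPM (SD, n = 4). The log2 fold changes were 0.06 (SE 0.99, adjusted p = 0.971) with age and -0.02 (SE 0.92, adjusted p = 0.998) between knockout and old control. Leaving out single livers turned these values from -1.26, without old control replicate 3, to 1.43, without young replicate 3. Between knockout and old control the same step gave -1.17, without knockout replicate 2, to 1.30, without old control replicate 3. The SD of log2 CPM within groups was 1.497, above that of 99.8% of tested genes and of all 1000 genes nearest in level. For Socs2 it was 0.77, above 95.9% of tested genes and 99.4% of those nearest in level.

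Among the high Cish livers, young replicate 3 and old control replicate 3 also had the highest Socs2 of their groups, and knockout replicate 2 the second highest. Across the 7 old livers the log2 CPM of Socs2 and Cish had a Pearson r of 0.752 (exact permutation p = 0.0734, two-sided, 0.220 after adjustment over 3 pairs) and a Spearman rho of 0.679 (exact permutation p = 0.1095). Without old control replicate 3 and knockout replicate 4, the livers farthest from the median of Socs2, r was 0.967 over 5 livers. For Igf1 and Ghr r was 0.334 (exact permutation p = 0.474, adjusted 0.711) with rho 0.0714 (exact permutation p = 0.906), and 0.193 without knockout replicates 1 and 2. For Igf1 and Igfals r was 0.107 (exact permutation p = 0.850, adjusted 0.850) with rho -0.143 (exact permutation p = 0.783), and 0.591 without the same livers. None of the 3 relations passed the threshold.

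**Figure D3:**
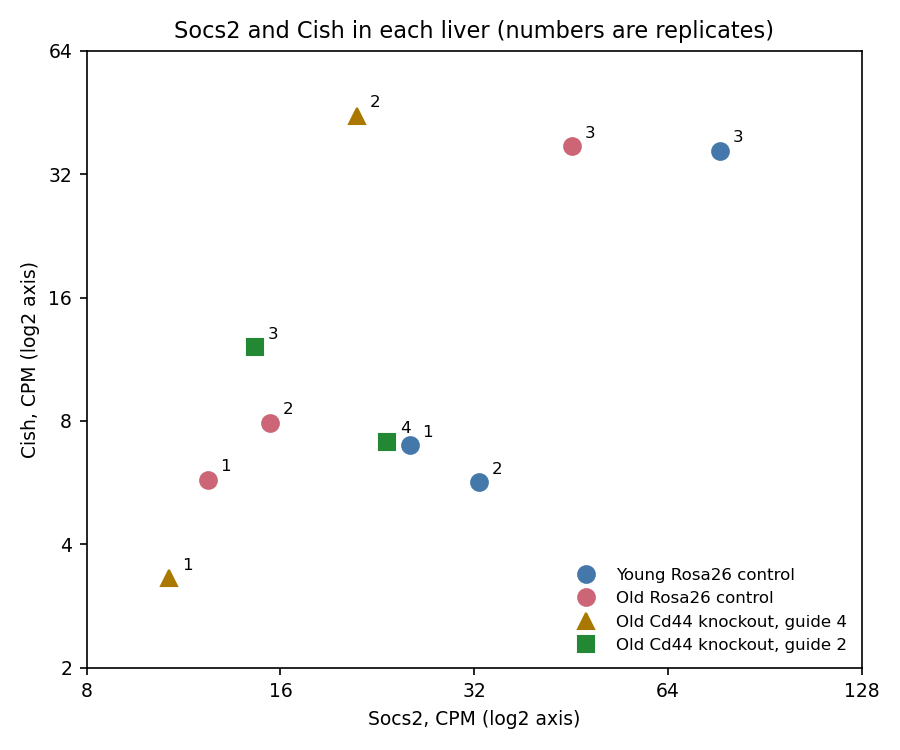
Cish against Socs2 in CPM (both axes log2) in each of the 10 livers, with colours and symbols for the group and guide and numbers for the replicate. The 3 livers above 32 CPM of Cish come from 3 groups, and the other 7 lie between 3.31 and 12.1 CPM.

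None of the 3 IGF binding proteins among the members was called in these comparisons. Igfbp1, whose product is made under low insulin, lies on chromosome 11 (7197782 to 7202546, plus strand) beside Igfbp3 (7206086 to 7213923, minus strand). Igfbp1 had 57.8, 37.5 and 56.8 CPM in young livers, averaging 50.7 ± 11.4 CPM (SD, n = 3). Old controls had 27.9, 19.0 and 95.8 CPM, averaging 47.6 ± 42.0 CPM (SD, n = 3). Guide 4 knockouts measured 6.57 and 17.2 CPM and guide 2 knockouts 35.5 and 12.02 CPM, averaging 17.8 ± 12.6 CPM (SD, n = 4). All 4 knockout livers were below all young livers, where groups did not overlap for 40% of all genes. Old control replicate 3 was the highest of the 10. The log2 fold change was -1.502 (SE 0.58, adjusted p = 0.101) between knockout and young livers. Between knockout and old control it was -1.41 (SE 0.58, unadjusted p = 0.0325, adjusted p = 0.744), and -0.38 without old control replicate 3. With age it was -0.09 (SE 0.61, adjusted p = 0.928), and -1.12 without old control replicate 3. Feeding state at collection is not in the labels, and its part in Igfbp1 was not tested.

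Igfbp2, the most abundant of the binding proteins here per kilobase among the members (chromosome 1, 72824503 to 72852474, plus strand), had 273, 266 and 199 CPM in young livers, averaging 246 ± 41.0 CPM (SD, n = 3). Old controls had 469, 277 and 289 CPM, averaging 345 ± 107 CPM (SD, n = 3). Every old control was above every young liver, but old control replicate 2 by only a few CPM, and groups did not overlap there for 37.7% of all genes. Among knockouts, guide 4 livers had 283 and 342 CPM and guide 2 livers 165 and 252 CPM, averaging 261 ± 74.0 CPM (SD, n = 4), and spanned the young range. The log2 fold changes were 0.49 (SE 0.27, adjusted p = 0.213) with age and -0.40 (SE 0.25, adjusted p = 0.794) between knockout and old control.

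Igfbp3, the main carrier of IGF1 in blood, is made in liver largely outside the hepatocyte. It had the largest fold change of the 10 genes with age. Young livers had 18.1, 11.3 and 18.3 CPM, averaging 15.9 ± 3.97 CPM (SD, n = 3). Old controls had 39.5, 76.0 and 13.3 CPM, averaging 42.9 ± 31.5 CPM (SD, n = 3). In knockout livers the values were 27.7 and 25.5 CPM for guide 4 and 46.3 and 47.8 CPM for guide 2, averaging 36.8 ± 11.8 CPM (SD, n = 4). Of the 7 old livers 6 were above every young liver, and the exception was old control replicate 3. The log2 fold change was 1.43 (SE 0.50, unadjusted p = 0.0151, adjusted p = 0.0598) with age, 1.85 (adjusted p = 0.00422) without old control replicate 3 and 0.73 (adjusted p = 0.286) without old control replicate 2. Between knockout and young livers it was 1.21 (SE 0.47, adjusted p = 0.105), and between knockout and old control -0.22 (SE 0.45, adjusted p = 0.940), or -0.65 without old control replicate 3.

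Markers of most, but not all, of the non-hepatocyte cell types listed moved with age in the same livers. Of 12 markers of sinusoidal endothelium, 10 rose in old against young controls, against 14.1% of all genes called higher, and none was at 0 in any liver. Their summed level was 231 to 318 CPM in young livers, 442 to 551 CPM in old controls and 317 to 393 CPM in knockout livers. Old control replicate 3 had 442 CPM of these markers and the lowest Igfbp3 of the old livers. The guide 2 livers had 331 and 317 CPM of the markers. Kupffer cell markers (8 of 10 rose) and stellate cell markers (7 of 10 rose) also went up with age, and their summed levels ranged from 281 to 396 and 171 to 276 CPM in young livers and from 544 to 1760 and 344 to 504 CPM in old controls. Markers of T cells (4 of 6 tested), B cells (4 of 5) and neutrophils (4 of 4 tested) rose as well. T cell markers summed to 2.79 to 3.89 CPM in young livers and 3.67 to 43.9 CPM in old controls, and B cell markers to 3.42 to 7.71 and 8.01 to 33.2 CPM. Neutrophil markers summed to 3.29 to 8.63 CPM in young livers, where 2 or 3 of the 6 were at 0, and to 13.3 to 252 CPM in old controls. The highest sum of each of these 3 lists, 252 CPM for neutrophils, was in old control replicate 2, the liver with the highest Igfbp3. None of 5 cholangiocyte markers was called, with a median log2 fold change of 0.13. The part of these cells in the Igfbp3 values was not tested, and in bulk liver more cells of a type and more RNA per cell cannot be told apart.

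**Figure D4:**
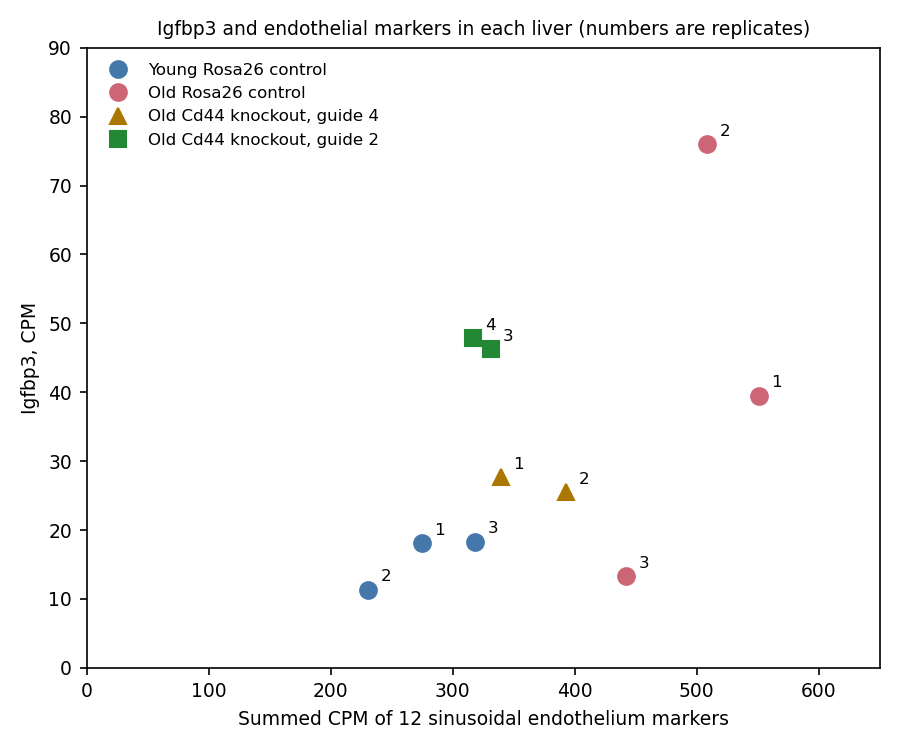
Igfbp3 in CPM against the summed CPM of 12 sinusoidal endothelium markers in each of the 10 livers (linear axes from 0), with symbols for the group and guide and numbers for the replicate. Old controls lie to the right of all other livers at 442 to 551 CPM of the markers, with Igfbp3 from 13.3 to 76.0 CPM.

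The 2 guides were compared among the knockout livers. None of the 10 genes was called in edgeR's quasi-likelihood test, DESeq2 or limma voom, and none had an unadjusted p under 0.05, against 0.0216% and 4.34% of all genes. For 4 of the 10, Igf1, Stat5a, Igfbp2 and Igfbp3, the guide 4 livers did not overlap the guide 2 livers, against 38.6% of all genes with 2 livers on each side. With an adjusted p of 0.99955 for each, guide 4 against guide 2 gave log2 fold changes of 0.21 (SE 0.15) for Igf1, 0.44 (SE 0.20) for Stat5a, 0.59 (SE 0.30) for Igfbp2 and -0.82 (SE 0.57) for Igfbp3. The members' share was near that of all genes.

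Of 18 other signalling genes of the growth hormone and IGF receptors, all tested, 2 rose and 1 fell in old against young controls, against 14.1% of all genes called higher and 8.66% called lower, with a median log2 fold change of -0.08 beside 0.04 for all genes. Jak2, the kinase bound to the receptor, had 13.5 ± 1.43 CPM in young livers (SD, n = 3) and 14.9 ± 1.45 CPM in old controls (SD, n = 3), with an adjusted p of 0.450. The largest rise was that of Sirpa, a membrane protein of macrophages that recruits phosphatases, from 17.3 ± 2.79 to 71.0 ± 36.0 CPM (log2 fold change 2.04, SE 0.34, adjusted p = 0.00783). Sirpa rose beside the Kupffer cell markers given above, whose part was not tested. The other 2 calls were phosphatase genes that act on this pathway, Ptpn6 with a log2 fold change of 0.96 (adjusted p = 0.0379) and Ptpn2 with -0.50 (adjusted p = 0.0282). Both of these calls were lost when only the groups compared were fitted (adjusted p of 0.0842 and 0.0701) and without young replicate 1, young replicate 2 or old control replicate 2. Ptpn6 was also lost without young replicate 3 and with limma voom, and Ptpn2 with total counts. Leaving out single livers gave 1 to 3 genes higher and 0 to 4 lower with age. Against young livers, the knockout livers had 2 of the 18 genes higher (Sirpa and Irs1) and 3 lower, against 6.64% and 4.97% of all genes. Stat3 and Ptpn1 were among the lower ones. The Stat3 call was lost in every fit without 1 liver, with total counts (adjusted p = 0.0686) and with limma voom (adjusted p = 0.0525). Ptpn1 was lost in every such fit except those without young replicate 1 or knockout replicate 1. The calls of Sirpa and Irs1 were lost in every such fit except that without knockout replicate 1. Leaving out single livers gave 0 to 2 higher and 0 to 2 lower in that comparison, so no such fit kept 3 lower. None of the 18 was called between knockout and old control.

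Of the other genes of the IGF system, 9 of 13 had enough counts, and Pappa, Pappa2, Stc1 and Stc2 did not. With age 1 of the 9 passed, against 22.8% of all genes. It was Igfbp7, a binding protein with low affinity for IGF1 that endothelial cells make in quantity. It had 47.6, 47.0 and 59.5 CPM in young livers and 99.5, 133 and 65.2 CPM in old controls (log2 fold change 0.95, SE 0.21, adjusted p = 0.0140). Every old control was above every young liver, where groups did not overlap for 37.7% of all genes tested. The adjusted p of Igfbp7 was 0.0506 without old control replicate 2, 0.0680 without young replicate 2 and 0.0537 when only the groups compared were fitted. Igf1r, the receptor of IGF1, had 2.86 ± 1.15 CPM in young livers (SD, n = 3) and 3.96 ± 0.665 CPM in old controls (SD, n = 3). Insr had 112 ± 8.86 and 105 ± 13.3 CPM (SD, n = 3 each), with an adjusted p of 0.605. Igfbp4, a binding protein of hepatocytes, had 1313 ± 14.0 CPM in young livers and 1153 ± 233 CPM in old controls (SD, n = 3 each), with an adjusted p of 0.397.

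Several male-biased liver genes, whose RNA depends on the male pattern of growth hormone pulses, were lower in old livers. Of 15 male-biased liver genes, 8 fell and none rose in old against young controls, against 8.66% of all genes called lower, with a median log2 fold change of -1.07. This list and the others were chosen with earlier results of these data known, so their counts are descriptions and no test of enrichment. Elovl3, which elongates fatty acids, had 261, 414 and 335 CPM in young livers and 156, 79.3 and 160 CPM in old controls (log2 fold change -1.35, SE 0.25, adjusted p = 0.00926). Its knockout values were 106, 90.4, 95.6 and 90.7 CPM, all below the young livers, where groups did not overlap for 40% of all genes. Cyp4a12a, a fatty acid hydroxylase, had 478, 715 and 594 CPM in young livers and 192, 61.3 and 98.2 CPM in old controls, without overlap, as for 37.7% of all genes. Its log2 fold change was -2.34 (SE 0.38, adjusted p = 0.00772), with the reservation that Cyp4a12b is a near copy and reads could be shared. In knockout against young livers 8 of the 15 were again lower and none higher, against 4.97% of all genes called lower, with a median of -1.20. None of the 15 was called between knockout and old control by edgeR, where 3 had an unadjusted p under 0.05, against 6.59% of all genes. The count of 8 with age was 3 without young replicate 2 or old control replicate 2, and the count in knockout livers was 2 without young replicate 2 or 3 and 4 without young replicate 1 or knockout replicate 2 or 3.

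Few female-biased genes were called. Of 15 tested among 19 listed, 2 rose and none fell in old against young controls, against 14.1% of all genes called higher, with a median log2 fold change of -0.03. In knockout against young livers 3 rose, against 6.64%. Cyp2b9, a steroid hydroxylase, had 0.306, 0 and 0.127 CPM in young livers and 0.688, 11.4 and 23.8 CPM in old controls (adjusted p = 0.0164). Its knockout values were 10.98, 31.4, 22.1 and 2.98 CPM. Every old liver was above every young liver, and they ranged from 0.688 to 31.4 CPM. Hao2, a peroxisomal oxidase, had 0.306, 0.462 and 0.380 CPM in young livers and 1.08, 1.504 and 0.954 CPM in old controls (adjusted p = 0.0200). Both calls were lost when single young livers were left out, with adjusted p of 0.0747 for Cyp2b9 and 0.0613 for Hao2 without young replicate 2. Cyp2b9 was also not called by limma voom, which gave a log2 fold change of 5.61 with an adjusted p of 0.231. Without young replicate 3 edgeR's adjusted p was 0.0575 for Cyp2b9 and 0.0580 for Hao2. For Hao2 it was also 0.0653 without young replicate 1 and 0.0732 without old control replicate 2.

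**Figure D5:**
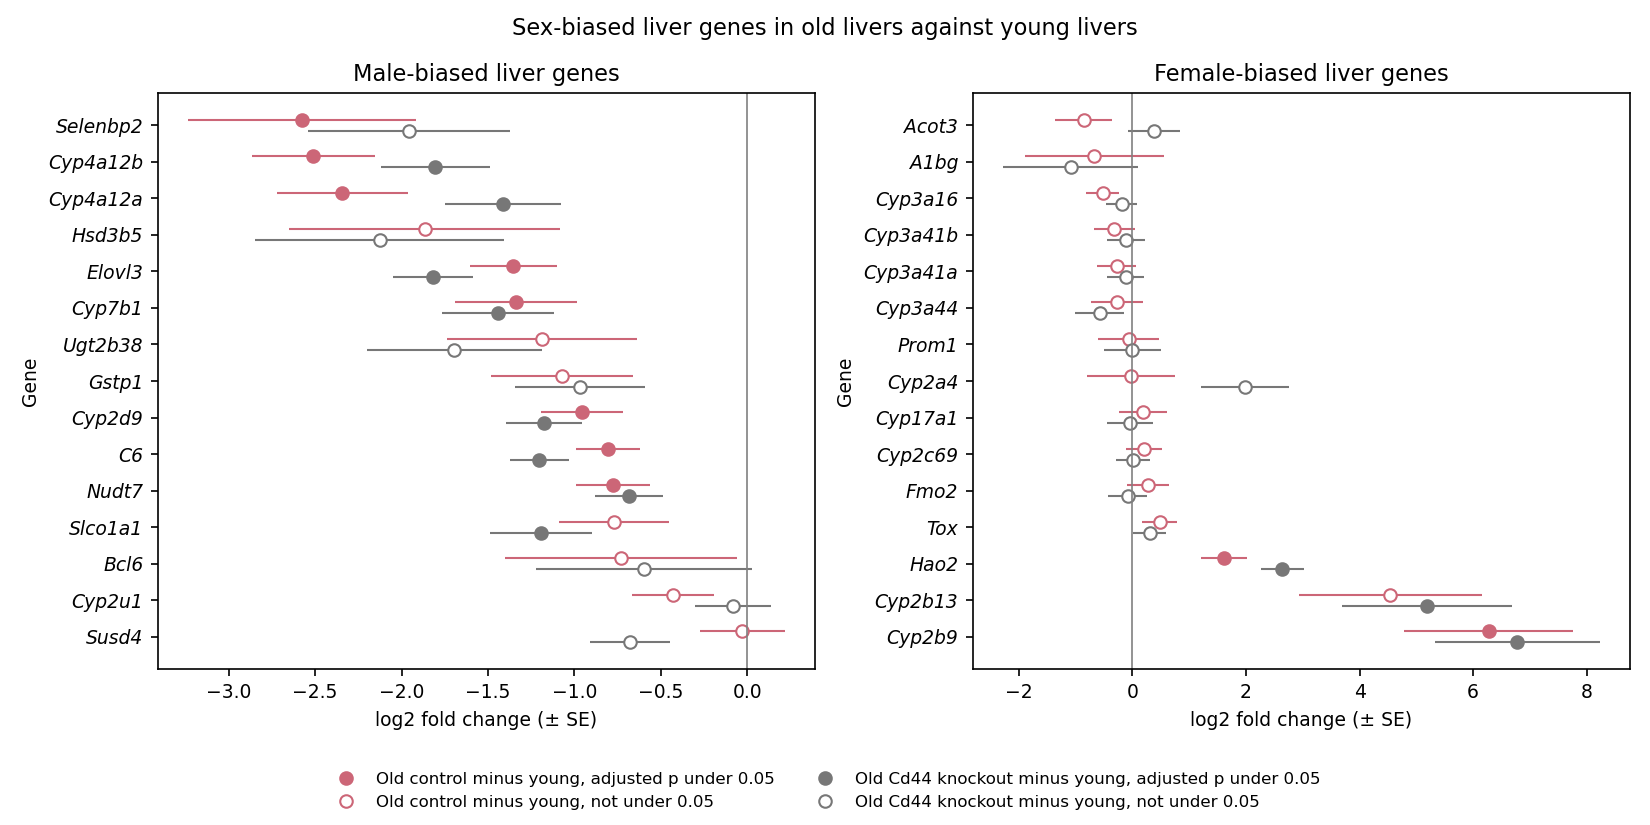
Log2 fold change (horizontal axes, ± SE) of 15 male-biased and 15 tested female-biased liver genes in old control and old knockout livers against young livers, with filled points for an adjusted p under 0.05. Filled points lie left of 0 for 8 male-biased genes in each comparison, and right of 0 for 2 female-biased genes in old controls and 3 in knockout livers.

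Genes induced in fasting or by the FOXO factors gave 2 higher and 1 lower of 12 in old against young controls, against 14.1% and 8.66% of all genes, and none between knockout and old control. Leaving out single livers gave 1 to 2 higher and 0 to 2 lower. Sesn1, a stress-induced inhibitor of growth signalling, rose from 7.64 ± 1.49 to 14.5 ± 2.31 CPM (SD, n = 3 each; log2 fold change 0.93, SE 0.18, adjusted p = 0.00936), a call that each alternative run also made. Ppargc1a, a coactivator of glucose synthesis genes, rose from 3.71 ± 0.656 to 7.15 ± 1.90 CPM (SD, n = 3 each; log2 fold change 0.95, SE 0.26, adjusted p = 0.0269). That call was lost when only the groups compared were fitted (adjusted p = 0.0661) and in 4 of the 6 fits without 1 liver, those without young replicate 1 or 2 or old control replicate 1 or 2. Tat, which breaks down tyrosine, fell from 1325 ± 371 to 739 ± 203 CPM (SD, n = 3 each; log2 fold change -0.84, SE 0.27, adjusted p = 0.0479). The Tat call was lost without the same 4 livers, and with total counts (adjusted p = 0.125), no filter on low counts (0.0519), limma voom (0.0551) and only the groups compared (0.0890). Pck1, the enzyme that starts glucose synthesis, had 3036 ± 570 CPM in young livers and 1956 ± 378 CPM in old controls (SD, n = 3 each), with an adjusted p of 0.0609. Foxo1 had 33.6 ± 3.63 and 26.8 ± 4.71 CPM (SD, n = 3 each), with an adjusted p of 0.215.

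By likeness of pattern, the 5 genes whose log2 CPM correlated most with Igf1 over the 10 livers were Col15a1 (r = 0.941), Klhdc8a (r = 0.912), Fam47e (r = 0.911), Nans (r = 0.903) and Rreb1 (r = 0.902). They were picked as the highest of 13909 genes and are given as a description. Col15a1, a collagen gene, had 11.3, 14.1 and 12.9 CPM in young livers, 9.19, 9.80 and 10.2 CPM in old controls, 15.2 and 14.6 CPM (guide 4) and 7.58 and 10.3 CPM (guide 2). It was high in the same 2 knockout livers as Igf1.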

How the data were processed

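The authors deposited 1 table of raw counts per gene symbol, whole numbers with 1 column per liver and no normalization. Per the submitters' processing notes, FastQC 0.11.8, Trim Galore 0.4.4, STAR 2.5.3a and HOMER were used with the mm10 build. Which annotation and strand setting served for counting is not given in the sources used here. Per the labels' protocols, libraries came from 250 ng of total RNA by polyA isolation and were sequenced as paired reads of 75 bases.

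From these counts edgeR 4.0.16 in R 4.3.3 fitted a quasi-likelihood model to the 10 livers with 1 coefficient for each group, TMM factors and the filterByExpr filter (minimum count 10, minimum total 15). A 4-coefficient fit on the same genes compared the guides. P-values were adjusted by Benjamini-Hochberg over 13909 genes and called under 0.05. The SE is the size of the log2 fold change divided by the square root of F. The biological coefficient of variation was 21.8%, and log2 CPM had a prior count of 2. Libraries held 15821198 to 21710228 counts, and Wilson intervals and floors cover counting error only. In chi-square per degree of freedom, pairs of young livers differed by 21.7 to 34.0 and pairs of knockout livers by 26.2 to 47.8. Pairs of old controls differed by 69.3 to 180, so this group was the least uniform. Positions are from GENCODE M21 on GRCm38, and promoter windows are from RefSeq. Correlations used scipy 1.17.1.

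The 10 genes and all lists were chosen with earlier results of these data known. Named genes are the 10 members, Cd44, up to 4 called genes of each list by fold change with a mean of at least 1 CPM, and the 5 genes most like Igf1. Jak2, Insr, Igf1r, Igfbp4, Pck1, Foxo1 and Bcl6 were named after their values were seen. Alternatives were DESeq2 1.42.0, limma voom (limma 3.58.1), total counts, no low-count filter, only the groups compared, and leaving out each liver. The steps were tested on simulated data.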

Additional observations from a re-analysis of the deposited data

Results flagged for a closer look

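Cyp2a4, a female-biased steroid hydroxylase of the lists used here, differed between the livers of the 2 Cd44 guides. Its log2 fold change for guide 4 against guide 2 was -3.25 (SE 0.36, adjusted p = 0.0275, edgeR's quasi-likelihood test). Guide 2 against old control gave 2.86 (SE 0.31, adjusted p = 0.0359). With 2 livers per guide the call was lost whenever 1 of them was left out, with log2 fold changes from -3.67 to -2.93 and adjusted p from 0.120 to 0.540. Cyp2a5 is a near copy and reads could be shared. A check for a single liver far from the others was run on 21 results in the group of 4 knockout livers and found 0, where chance gives about 1.05.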

How the results depend on the processing

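No paired analysis was possible because no number in the labels links livers across groups. Among the alternatives, the number of the 10 genes called with age was 1 with DESeq2, 2 with total counts in place of TMM (Stat5b and Igfbp3) and 0 to 3 when 1 liver was left out, 3 without old control replicate 3. In knockout against young livers the number of the 10 genes called was 3 with DESeq2 and 1 with total counts (Igfbp3). It was 4 when only the groups compared were fitted (Ghr, Socs2, Igfbp1 and Igfbp3). The main fit called 1614 of all genes there. Between knockout and old control, and between guides, it was 0 under each alternative run. Male-biased genes called lower numbered 3 to 9 with age and 2 to 8 in knockout against young livers when 1 liver was left out. With total counts these log2 fold changes turned positive: with age Igf1 0.22, Igfals 0.18, Stat5a 0.18 and Igfbp1 0.14, in knockout against young livers Igf1 0.31, Igfals 0.12 and Stat5a 0.11, and Cish 0.10 between knockout and old control. That scaling raised the median of all genes with age, as given above. The r of Igf1 and Igfals was then -0.27, and limma voom gave 0.049 for Igfbp3 between knockout and old control.

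Leaving out single livers changed the sign of small or variable values. With age the ranges were -0.38 to 0.12 for Igfals, -1.26 to 1.43 for Cish and -1.12 to 0.29 for Igfbp1. Between knockout and old control they were -0.14 to 0.054 for Ghr, -0.30 to 0.19 for Igfals, -0.22 to 0.020 for Stat5a, -0.80 to 0.33 for Socs2, -1.17 to 1.30 for Cish and -0.65 to 0.48 for Igfbp3. Between knockout and young livers they were -0.064 to 0.026 for Igf1, -0.090 to 0.12 for Stat5b, -1.11 to 1.41 for Cish and -0.076 to 0.25 for Igfbp2. Between guides they were -0.82 to 0.15 for Socs2 and -1.54 to 2.20 for Cish. The correlations ranged from -0.0099 to 0.57 for Igf1 with Ghr, -0.37 to 0.30 for Igf1 with Igfals and 0.63 to 0.87 for Socs2 with Cish. Beyond the alternatives named, the cause of these changes was not tested. Of all log2 fold changes recomputed, 586 kept direction and side of the threshold, 40 reversed, 14 passed it newly and 108 no longer passed.

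The lowest value of the 10 genes was 3.31 CPM, above the 0.138 to 0.190 CPM that 3 counts correspond to. Within-group SDs of log2 CPM were 0.77 for Socs2 and Igfbp3, 0.95 for Igfbp1 and 1.497 for Cish, beside a median of 0.26 for all tested genes. Feeding, time of day and circulating growth hormone are not in the labels.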

Other observations

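The genes nearest in pattern to the most variable members were looked up after their values were seen. Over the 10 livers, log2 CPM of Cish correlated most with Kbtbd2 (r = 0.912), Plk3 (r = 0.889), Rgs3 (r = 0.861), Zfp655 (r = 0.857) and Tle3 (r = 0.849). Plk3, a stress-responsive kinase gene, had 91.7, 63.7 and 66.0 CPM in the 3 livers with high Cish and 25.1 to 47.2 CPM in the other 7. Igfbp1 correlated most with Gpcpd1 (r = 0.949), Ctsf (r = 0.926), Fam134a (r = 0.922), Jun (r = 0.922) and Chac1 (r = 0.919). Jun, an immediate early gene, and Gpcpd1 were highest in old control replicate 3, at 47.1 and 83.0 CPM, as was Igfbp1.

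Bcl6, a repressor that growth hormone lowers in male liver, had 92.2, 86.4 and 27.8 CPM in young livers and 80.4, 34.3 and 9.92 CPM in old controls. Knockout replicates 1 to 4 had 72.3, 27.9, 23.0 and 59.2 CPM. The lowest Bcl6 in each control group was in replicate 3, the liver with the highest Cish and Socs2, and among knockout livers Bcl6 was low in replicates 2 and 3 and high in replicates 1 and 4. The log2 fold change of Bcl6 with age was -0.73 (SE 0.67, adjusted p = 0.451). Stat3 had 271, 257 and 237 CPM in young livers, 104, 122 and 272 CPM in old controls and 132, 157, 121 and 93.6 CPM in knockout replicates 1 to 4. Old control replicate 3 was thus at the young level.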
